A study of Pan troglodytes with 6 samples.

Results

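Genes of calcium, sodium, HCN and TRP channels and of the calcium release channels of internal membranes were compared between 2 tissues of the chimpanzee (Pan troglodytes), cerebellum and liver. They were chosen by name: features with exactly 1 gene symbol that begins with CACNA, CACNB or CACNG, or with SCN, HCN, TRPA, TRPC, TRPM, TRPV, RYR or ITPR and a number, 1 feature per symbol. This gave 57 genes of 12584 with 1 symbol in the table, and no symbol had more than 1 feature. A further 8 features named a matching gene together with another gene and were not used. Among the 57 genes, 23 are named as subunits of voltage-gated calcium channels and 11 as subunits of sodium channels. The rest are 1 HCN channel, 17 genes with TRP names and 5 intracellular release channels. One of the TRP names, TRPC4AP, belongs to a protein that binds a TRP channel and is not itself a channel.

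The study measured 3 cerebellum and 3 liver samples on an array designed for the human genome, to profile expression in closely related species. In both tissues, by the labels, replicate 1 came from a female of 27 years, replicate 2 from a male of 37 years and replicate 3 from a male of 30 years. No treatment or genotype is named. The labels call the samples biological replicates but do not say whether the same animals gave both tissues. All RNA was isolated with TRIzol and passed through a RiboMinus step, which removes ribosomal RNA. The p-values rest on the spread between these 3 samples per tissue, which limma moderates toward the spread shared by all features. Values are intensities, and differences are cerebellum minus liver on the log2(intensity + 16.8) scale.

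Voltage-gated calcium channels open when the membrane depolarises and let in the calcium that triggers transmitter release, shapes firing and starts muscle contraction. Their pore-forming alpha subunit is joined by beta and alpha-2-delta subunits that bring it to the membrane. Sodium channels carry the rising phase of the action potential, HCN channels open on hyperpolarisation and pace repetitive firing, and TRP channels pass cations in response to lipids, temperature or internal calcium. Inositol trisphosphate receptors and ryanodine receptors release calcium from the endoplasmic reticulum, the first on a messenger made by phospholipase C and the second on calcium itself. In the cerebellum, granule and Purkinje cells fire action potentials and use channels of these families. Hepatocytes do not fire action potentials and use calcium release in response to hormones.

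Of the 57 genes, 29 were called higher in cerebellum, 4 were called higher in liver and 24 did not pass, by limma with a Benjamini-Hochberg adjusted p under 0.05. Among all 15143 features of the table, 50.6% were called, 26.7% higher in cerebellum and 23.9% higher in liver, and the channel genes were called toward cerebellum at 50.9% and toward liver at 7.02%. When a 2-fold size was required as well, 25 and 3 of the channel genes passed, beside 17.2% and 15.8% of all features. The median log2 difference of the 57 genes was 0.55, beside 0.04 over all features. The 3 cerebellum values lay above all 3 liver values for 31 channel genes and below them for 7, beside 30.9% and 28.4% of all features. In such bulk samples, fewer cells of a type and less RNA per cell cannot be told apart.

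**Figure D1:**
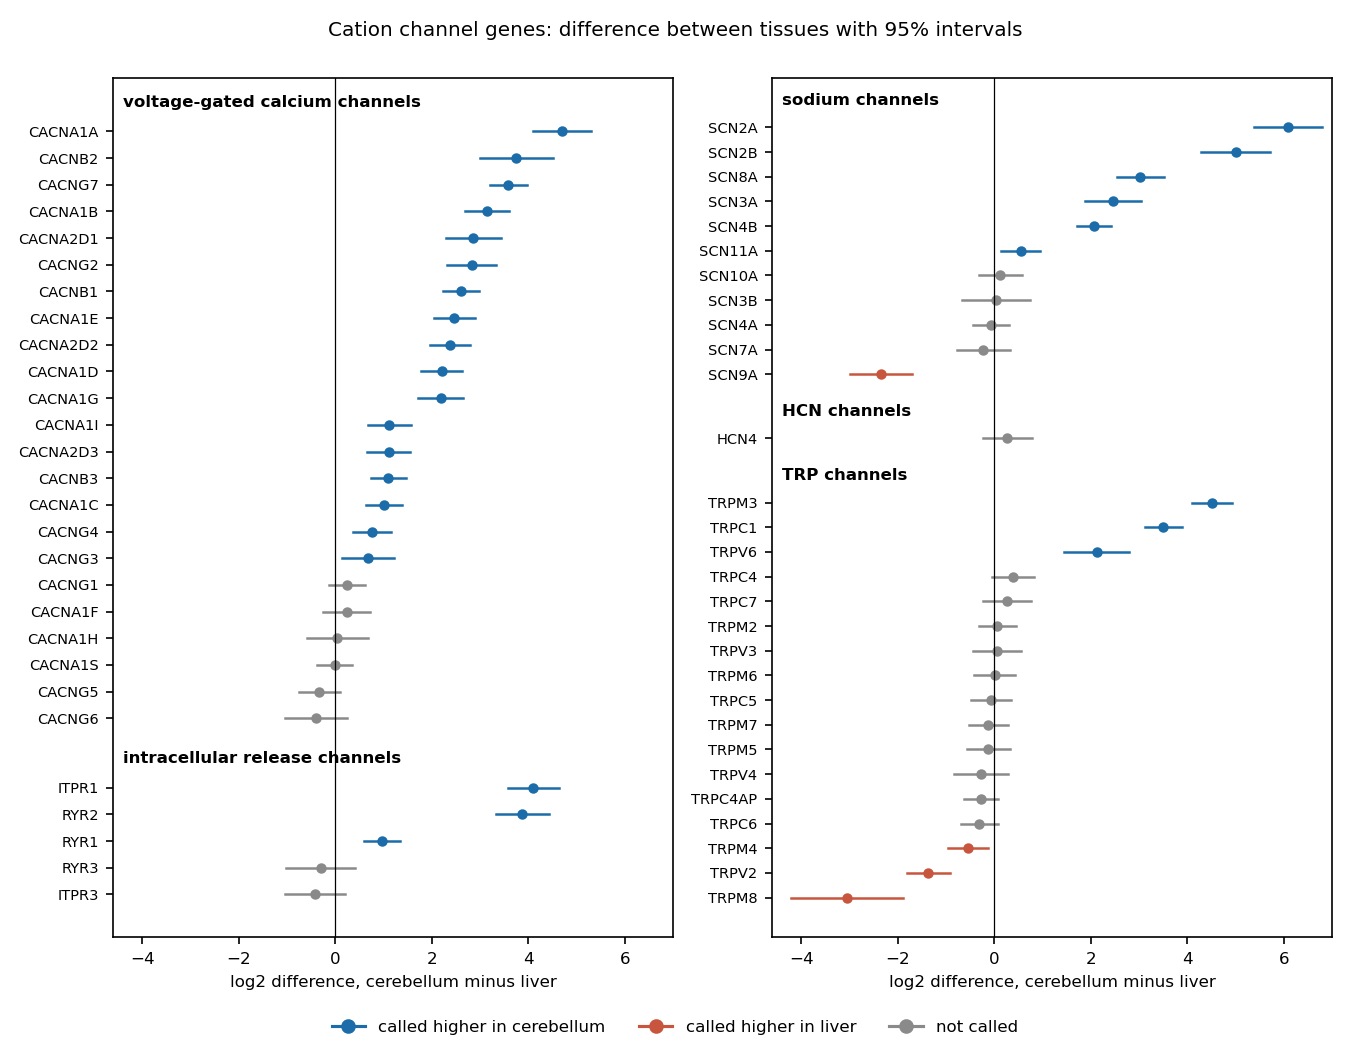
Log2 difference of each of the 57 genes (horizontal axis, cerebellum minus liver, on the log2(intensity + 16.8) scale), with points for estimates and lines for 95% confidence intervals, grouped by family. Calcium channel subunits lie mostly to the right of 0, whereas most TRP genes lie near 0, with TRPM3 at 4.51 and TRPM8 at -3.05 at the ends.

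Markers of granule cells, Purkinje cells and hepatocytes went largely with the tissue labels, and those of astrocytes less so. Of 9 astrocyte and Bergmann glia markers, 5 were higher in cerebellum, 1, NTSR2, was higher in liver and 3 did not pass. All 9 measured granule cell markers and 7 of 8 Purkinje cell markers were higher in cerebellum, and all 9 hepatocyte markers were higher in liver. Granule cell markers summed to between 11540 and 12980 on the cerebellum arrays, against 601 and 739 on the liver arrays. Hepatocyte markers summed to between 121 and 210 on the cerebellum arrays, against 26710 and 33940 on the liver arrays. Pearson's r between arrays of 1 tissue, taken over features, was 0.947 to 0.977 in cerebellum and 0.906 to 0.95 in liver.

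Voltage-gated calcium channel subunits were the family with the most genes toward cerebellum: by limma 17 of 23 were higher there, 0 were higher in liver and 6 did not pass. At an unadjusted p under 0.05 these counts stayed at 17 and 0. The shares called by adjusted p, 73.9% and 0%, stand beside 26.7% and 23.9% of all features. The median log2 difference of the family was 1.12. The 23 include 7 gamma subunits, 4 of them among the 17 calls. Most gamma subunits are known as escorts of AMPA-type glutamate receptors, as described below.

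The largest difference among them was that of CACNA1A, the pore of the P/Q-type channel, which dominates the calcium current of Purkinje cells and drives release from granule cell axons. Its intensity was 1819, 929 and 1499 in cerebellum replicates 1 to 3, against 37.0, 43.6 and 30.0 in liver replicates 1 to 3. The lowest cerebellum array, replicate 2, still lay far above every liver array. On the log2 scale the gap was 4.69 ± 0.26 (SE; limma, adjusted p = 2.03e-06).

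The other channels of the presynaptic and dendritic membrane followed in the same direction. CACNA1B, the pore of the N-type channel, differed by 3.14 on the log2 scale, and CACNA1E, that of the R-type channel, by 2.46. Among the L-type pores, CACNA1D, which opens at lower voltages, differed by 2.20, and CACNA1C, also known from heart and smooth muscle, by 1.01. The pores CACNA1F of the retina and CACNA1S of skeletal muscle had differences of 0.24 and -0.02 and did not pass. CACNA1S averaged 10.1 ± 1.79 in cerebellum and 10.5 ± 1.92 in liver (SD, n = 3 each), below the pseudocount in both tissues.

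T-type pores, which open near the resting potential and support burst firing, passed for CACNA1G and CACNA1I and not for CACNA1H. CACNA1G averaged 121 ± 32.5 in cerebellum and 13.0 ± 2.27 in liver (SD, n = 3 each), a log2 difference of 2.18. CACNA1I differed by 1.12. CACNA1H averaged 93.3 ± 12.1 and 94.5 ± 36.7, with a log2 difference of 0.04 and a 95% interval from -0.58 to 0.67, and its liver values spread from 52.1 on replicate 3 to 117 on replicate 2.

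All 6 measured beta and alpha-2-delta subunits were higher in cerebellum. CACNB2, a beta subunit also known from the heart, was at 619, 394 and 637 in cerebellum replicates 1 to 3, against 51.7, 17.0 and 13.8 in liver replicates 1 to 3. Liver replicate 1 stood above the other livers and cerebellum replicate 2 below the other cerebella, but the tissues did not overlap. This gave a log2 gap of 3.75 ± 0.33 (SE; limma, adjusted p = 2.88e-05). CACNB1, the beta subunit of skeletal muscle that neurons also express, differed by 2.60 and CACNB3, a neuronal one, by 1.10, with CACNB3 at 175 ± 14.3 in cerebellum and 72.8 ± 5.93 in liver (SD, n = 3 each). The alpha-2-delta genes CACNA2D1, CACNA2D2 and CACNA2D3 differed by 2.86, 2.37 and 1.10. CACNA2D2 is the form that Purkinje cells are known for, and its loss causes the ducky phenotype in mice.

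Of the 7 gamma subunits, 4 were higher in cerebellum. Most of this group is known as TARPs, which escort AMPA-type glutamate receptors to the synapse, whereas CACNG1 belongs to the calcium channel of skeletal muscle. CACNG7, a TARP, was at 374, 330 and 408 in cerebellum replicates 1 to 3, against 18.2, 12.7 and 15.6 in liver replicates 1 to 3. These arrays were close within each tissue, and the log2 gap came to 3.58 ± 0.17 (SE; limma, adjusted p = 9.02e-07). CACNG2, called stargazin and needed for AMPA receptors at granule cell synapses in mice, differed by 2.83. CACNG4 and CACNG3, TARPs too, passed with smaller differences of 0.76 and 0.68. The call of CACNG3 (limma, adjusted p = 0.0408) came with a liver group in which replicate 2 was at 36.4 beside 14.0 and 15.4, and it was lost when any array but that one was left out (adjusted p from 0.0724 to 0.113) and at a pseudocount of 38.3 (limma, adjusted p = 0.0561).

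Gamma subunits that did not pass were CACNG1, CACNG5 and CACNG6. For CACNG1 the tissues just failed to overlap, with 19.2, 17.3 and 16.3 in cerebellum and 12.0, 15.8 and 9.55 in liver (log2 gap 0.24; limma, adjusted p = 0.261). CACNG5, a TARP that lies the other way, was at 114, 109 and 134 in cerebellum and 145, 188 and 135 in liver, for a log2 gap of -0.34 (limma, adjusted p = 0.163). CACNG6 had a log2 difference of -0.40, and its liver replicate 3 at 74.7 lay among the cerebellum values of 67.6, 112 and 82.7, below the 159 and 136 of the other livers. Without liver replicate 3 it was called higher in liver, for a log2 gap of -0.68 (limma, adjusted p = 0.0372).

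**Figure D2:**
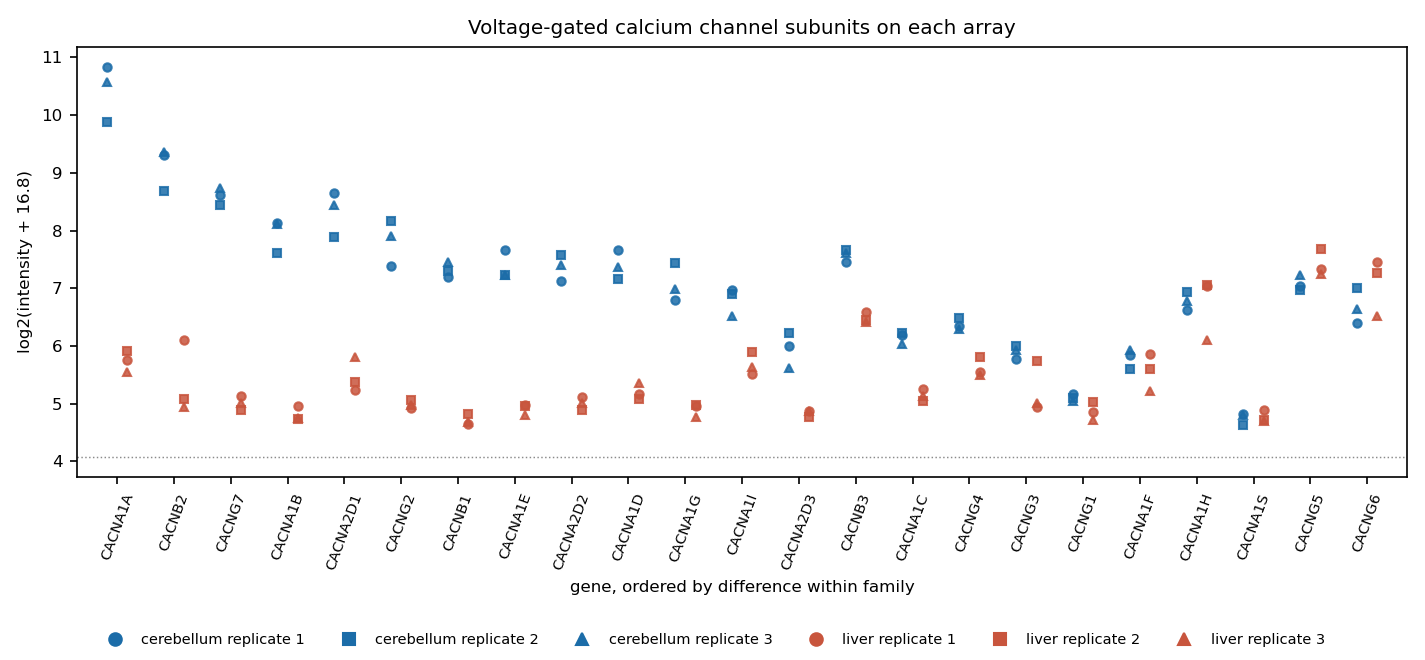
Level of each voltage-gated calcium channel subunit on each of the 6 arrays (vertical axis, log2(intensity + 16.8), dotted line at an intensity of 0), with cerebellum arrays left of liver arrays and 1 symbol shape per replicate number. CACNA1A shows the widest gap between the tissues, at 4.69, and from CACNG1 rightward no gene was called. Levels of different genes rest on different probes and are not set against each other.

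Sodium channel subunits held both the largest difference of all 57 genes and a call toward liver. Of the 11, 6 passed toward cerebellum, 1 toward liver and 4 did not pass. In this small family the shares were 54.5% and 9.09%, beside 26.7% and 23.9% of all features.

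SCN2A, a main sodium channel of unmyelinated axons and axon initial segments, was at 2521, 1081 and 2284 in cerebellum replicates 1 to 3, against 8.68, 12.0 and 10.9 in liver replicates 1 to 3. Cerebellum replicate 2 was lower than the other cerebella, and all liver values lay under the pseudocount of 16.8, so the size of the difference depends on it. It was 6.09 ± 0.31 on the log2 scale (SE; limma, adjusted p = 1.22e-06), and 5.27 with a pseudocount of 38.3. SCN8A, the channel of nodes of Ranvier and of the resurgent current of Purkinje cells, was at 574, 487 and 596 in cerebellum, against 69.8, 55.4 and 37.1 in liver. These groups lay well apart, with a log2 gap of 3.03 ± 0.21 (SE; limma, adjusted p = 7.62e-06). SCN3A, a channel most abundant in the fetal brain, averaged 147 ± 47.3 in cerebellum and 12.3 ± 4.09 in liver (SD, n = 3 each), a log2 difference of 2.46.

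Beta subunits hold sodium channels in the membrane and alter their gating. SCN2B was at 567, 433 and 936 in cerebellum replicates 1 to 3, against 10.2, -0.375 and -0.987 in liver replicates 1 to 3. Its cerebellum array 3 was the highest, and 2 liver values below 0 carry no order. All liver values lay under the pseudocount, so the size of the difference depends on it: 5.0 ± 0.31 at 16.8 (SE; limma, adjusted p = 3.88e-06), 3.98 at a pseudocount of 38.3 and 5.59 at 10.2. SCN4B, which supplies the peptide that is linked to resurgent current, had the tightest liver values of the family, at 229 ± 12.3 in cerebellum and 42.2 ± 0.393 in liver (SD, n = 3 each), and differed by 2.06. SCN3B did not pass: it was at 111 ± 27.3 and 113 ± 57.7, with a log2 difference of 0.04 and a 95% interval from -0.67 to 0.75.

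Channels known from sensory neurons or muscle gave 1 call toward each tissue. SCN11A, a channel of pain-sensing neurons, was dim in both tissues, at 23.0 ± 5.56 in cerebellum and 10.3 ± 1.52 in liver (SD, n = 3 each), with a log2 difference of 0.55 (limma, adjusted p = 0.0281). Its call was lost at a pseudocount of 38.3 (limma, adjusted p = 0.0639) and on leaving out any 1 of 4 arrays (adjusted p between 0.0527 and 0.128). SCN10A of the same neurons, SCN4A of skeletal muscle and SCN7A, an atypical sodium-sensing member, had log2 differences of 0.12, -0.07 and -0.22 and did not pass.

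The sodium channel higher in liver was SCN9A, known from peripheral sensory and sympathetic neurons, where its loss abolishes pain in humans. It was at 15.0, 12.5 and 13.9 in cerebellum replicates 1 to 3, against 97.1, 115 and 231 in liver replicates 1 to 3. Every liver array was above every cerebellum array, and liver replicate 3 was the highest. On the log2 scale the gap was -2.34 ± 0.28 (SE; limma, adjusted p = 1.84e-04), and -2.0 without liver replicate 3. SCN2A, SCN3A and SCN9A are close paralogs, and how far their probes share signal was not tested.

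HCN4 was the only HCN gene among the features with 1 symbol. It sets the pace of the heartbeat in the sinoatrial node and is also found in the brain. Its values were 92.5, 86.4 and 151 in cerebellum and 97.1, 78.9 and 81.8 in liver. Cerebellum replicate 3 was the highest and the other arrays overlapped. The log2 difference was 0.27, with a 95% interval from -0.24 to 0.78 (limma, adjusted p = 0.340).

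Among the 17 TRP genes, 3 passed toward cerebellum, 3 toward liver and 11 in neither direction. The median log2 difference was -0.07. The share called in either direction, 17.6% each, lay below the 26.7% and 23.9% of all features.

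TRPM3, a channel opened by heat and by the steroid pregnenolone sulfate, was at 707, 533 and 683 in cerebellum replicates 1 to 3, against 14.0, 10.9 and 10.6 in liver replicates 1 to 3. The cerebellum arrays were close and far above the liver arrays. This gave a log2 gap of 4.51 ± 0.18 (SE; limma, adjusted p = 3.62e-07). TRPC1, a subunit that joins other TRPC proteins in cation channels, was at 379, 304 and 323 in cerebellum, against 13.8, 11.9 and 16.5 in liver, again with no overlap. It differed by 3.51 ± 0.17 on the log2 scale (SE; limma, adjusted p = 9.69e-07). TRPV6, a channel of calcium uptake in the gut and placenta, was at 136, 68.5 and 166 in cerebellum, against 9.87, 12.7 and 20.0 in liver. Cerebellum replicate 2 had the lowest of its cerebellum values, and the log2 gap came to 2.12 ± 0.29 (SE; limma, adjusted p = 3.87e-04). TRPV5 is a close paralog of TRPV6, and whether their probes share signal was not tested.

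The largest TRP difference toward liver was that of TRPM8, the cold and menthol receptor of sensory neurons. It was at 10.8, 8.84 and 15.2 in cerebellum replicates 1 to 3, against 587, 151 and 109 in liver replicates 1 to 3. Liver replicate 1, from the female, was several times higher than the other livers, but the lowest liver still lay above all cerebella. The estimate was -3.05 ± 0.51 (SE; limma, adjusted p = 0.00117), and -2.36 without liver replicate 1 (limma, adjusted p = 1.15e-04).

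TRPV2, a channel of macrophages and of several other cells, was at 19.4, 25.2 and 14.9 in cerebellum replicates 1 to 3, against 85.8, 61.6 and 86.4 in liver replicates 1 to 3. The groups did not overlap, and the log2 gap came to -1.37 ± 0.19 (SE; limma, adjusted p = 4.74e-04). TRPM4, a channel for monovalent cations that internal calcium opens, was at 99.5, 97.4 and 125 in cerebellum, against 171, 182 and 139 in liver. The highest cerebellum array lay just under the lowest liver array, and the log2 gap came to -0.54 ± 0.18 (SE; limma, adjusted p = 0.0367). This call was lost with the arrays aligned on general genes (log2 difference -0.21, limma adjusted p = 0.537) and on leaving out any 1 of 4 arrays (adjusted p between 0.0782 and 0.116).

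Of the other TRPC genes, TRPC4 was at 24.1, 39.2 and 26.6 in cerebellum and 21.7, 19.5 and 15.2 in liver, which do not overlap, with a log2 difference of 0.39 (limma, adjusted p = 0.121). It was called with the arrays aligned on general genes (log2 difference 0.72, limma adjusted p = 0.0240). TRPC6, a channel of podocytes and smooth muscle that diacylglycerol opens, was at 53.7, 59.0 and 43.7 in cerebellum and 64.3, 69.7 and 71.1 in liver, for a log2 gap of -0.31 (limma, adjusted p = 0.156). TRPC4AP, the binding protein, was at 291, 321 and 286 in cerebellum and 358, 369 and 363 in liver, for a log2 gap of -0.27 (limma, adjusted p = 0.186). For these 3 genes the tissues did not overlap although the difference did not pass. TRPC5 and TRPC7 had log2 differences of -0.07 and 0.27.

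Of the remaining TRPM and TRPV genes, none passed in either direction (limma), also at an unadjusted p under 0.05. TRPM7, a channel fused to a kinase that most cells need for magnesium, averaged 261 ± 21.3 in cerebellum and 286 ± 38.8 in liver (SD, n = 3 each), with a 95% interval of the log2 difference from -0.52 to 0.28. TRPM2, a channel opened by ADP-ribose, had 74.5 ± 1.21 and 71.0 ± 10.3, with an interval from -0.32 to 0.44. TRPM5 of taste cells, TRPM6 of magnesium uptake in kidney and gut, TRPV3 of skin and TRPV4, a sensor of osmotic stretch, had log2 differences of -0.12, 0.01, 0.06 and -0.27.

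**Figure D3:**
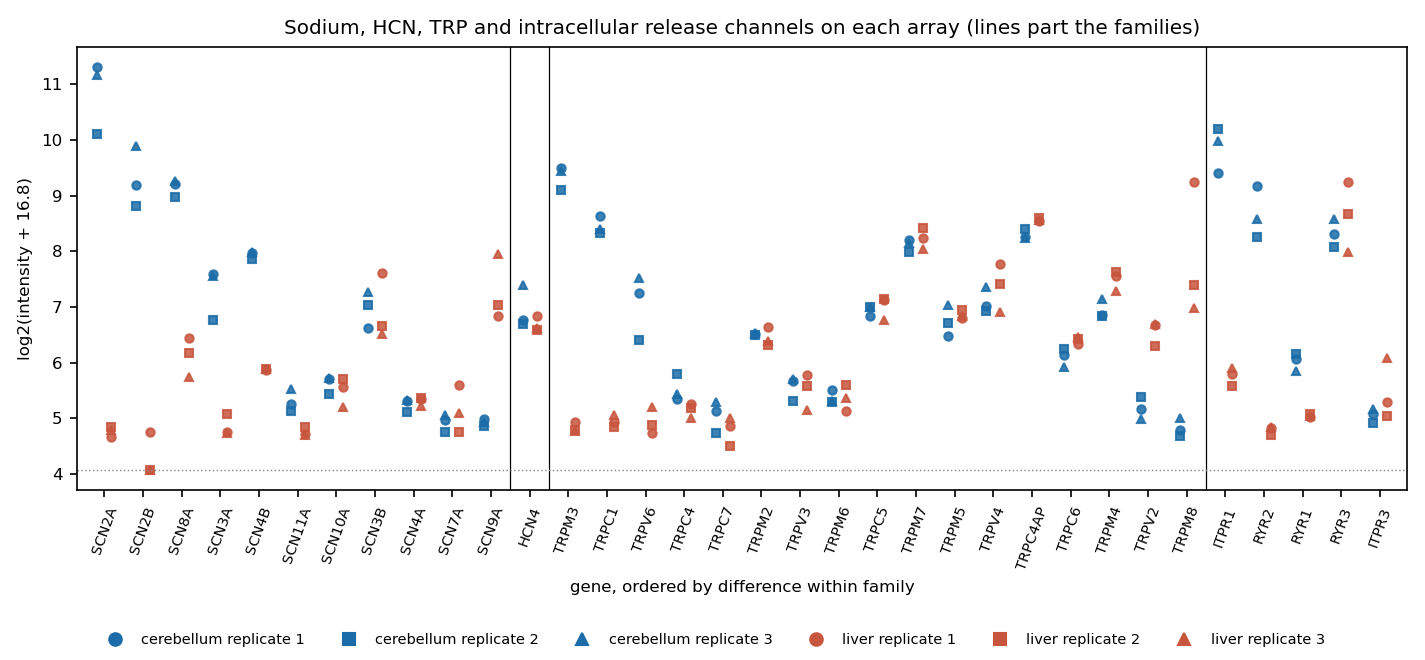
Level of each sodium channel, HCN, TRP and intracellular release channel gene on each of the 6 arrays (vertical axis, log2(intensity + 16.8), dotted line at an intensity of 0), cerebellum left of liver. SCN2A has the widest gap toward cerebellum, at 6.09, while TRPM8, with a spread of 109 to 587 among its liver arrays, has the widest toward liver.

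The intracellular release channels gave 3 genes higher in cerebellum, 0 higher in liver (limma, also 0 at an unadjusted p under 0.05) and 2 that did not pass. With only 5 genes, these shares of 60% and 0% stand beside 26.7% and 23.9% of all features. ITPR1, the inositol trisphosphate receptor in which Purkinje cells are exceptionally rich, was at 660, 1153 and 995 in cerebellum replicates 1 to 3, against 38.7, 31.1 and 43.2 in liver replicates 1 to 3. Cerebellum replicate 1 was the lowest of its group, and the groups lay far apart. On the log2 scale the gap was 4.10 ± 0.23 (SE; limma, adjusted p = 2.33e-06). ITPR3, the receptor of many secretory epithelia, was at 17.0, 13.3 and 19.2 in cerebellum and 22.5, 16.4 and 51.0 in liver. Only liver replicate 3 stood out, the groups overlapped, and the log2 difference was -0.42 with a 95% interval from -1.04 to 0.19 (limma, adjusted p = 0.222). ITPR2 shared its feature with another gene and was not analysed here, so the 0 higher in liver does not cover it.

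Of the ryanodine receptors, RYR2, the form of the heart and of many neurons, was at 560, 289 and 365 in cerebellum replicates 1 to 3, against 11.7, 9.21 and 12.1 in liver replicates 1 to 3. All cerebellum arrays were above all liver arrays, with replicate 1 the highest, and the log2 gap came to 3.87 ± 0.24 (SE; limma, adjusted p = 4.03e-06). RYR1, the form of skeletal muscle that Purkinje cells also hold, was at 50.0, 54.2 and 41.2 in cerebellum, against 15.9, 16.9 and 16.1 in liver. Both groups were tight, and the log2 gap came to 0.97 ± 0.16 (SE; limma, adjusted p = 0.00120). RYR3, a form found at low amounts in many tissues, was at 302, 254 and 368 in cerebellum and 587, 393 and 236 in liver. Its liver values ran both above and below all cerebella, and the log2 difference was -0.30 with a 95% interval from -1.01 to 0.41 (limma, adjusted p = 0.447).

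For 21 of the 24 genes that did not pass, the 95% interval of the log2 difference lay within 2-fold in either direction. The exceptions were CACNG6, ITPR3 and RYR3. Of the 24, 14 had a mean below the table's median intensity of 96.3 in both tissues. Single arrays could still lie above it, as CACNA1H did at 117 on liver replicate 2. A liver mean under the pseudocount was found for 3 of the 24, and a cerebellum mean under it for 3. Among the 29 genes higher in cerebellum, 17 had a liver mean under the pseudocount, and for them the fold depends on it. The same limit holds for 2 of the 4 genes higher in liver, SCN9A and TRPM8, whose cerebellum means lay under the pseudocount.

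Genes that work with these channels were described from lists by role. The counts of each list stand beside 26.7% of all features called higher in cerebellum and 23.9% called higher in liver. Calcium pumps and exchangers, which carry calcium out of the cell or back into stores, gave 11 of 15 measured genes higher in cerebellum and 0 higher in liver (limma, also 0 at an unadjusted p under 0.05), with a median log2 difference of 1.05 beside 0.04 over all features. The pumps ATP2B3 and ATP2B1 of the plasma membrane led at 2.78 and 2.58. ATP2B3 was at 236, 304 and 244 in cerebellum, against 23.5, 24.2 and 22.4 in liver.

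The inositol trisphosphate list held enzymes that make or remove this messenger, with signalling and binding proteins such as HOMER1, RGS8 and CA8. It gave 11 of 19 higher in cerebellum and 4 higher in liver, with a median of 1.12. Its share toward liver, 21.1%, lay near the 23.9% of all features. PLCB4, the phospholipase C of Purkinje cells, was at 1024, 616 and 1009 in cerebellum, against 11.9, 15.7 and 22.5 in liver, a log2 difference of 4.72. CA8, a protein that binds ITPR1 and lowers its affinity for the messenger, differed by 3.28. Toward liver, PLCB2, a phospholipase C of blood cells, and ITPRIP, a protein that binds the receptor, differed by -1.51 and -1.41.

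Partners of the ryanodine receptors gave 7 of 10 higher in cerebellum and 0 higher in liver (limma, also 0 at an unadjusted p under 0.05), with a median of 1.29. The junctophilins JPH3 and JPH4, which tie the endoplasmic reticulum to the plasma membrane in neurons, differed by 4.36 and 3.40. JPH3 was at 409, 460 and 334 in cerebellum, against 0.919, 4.28 and 5.26 in liver.

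Partners of calcium channels gave 11 of 17 higher in cerebellum and 1 higher in liver, with a median of 1.13. SNAP25, a release protein that binds the channels, and RIMS2, a scaffold of the active zone, differed by 6.70 and 5.56. GEM, a small GTPase that inhibits the channels, went toward liver at -2.02, with 30.8, 36.5 and 12.7 in cerebellum and 166, 55.1 and 359 in liver. It was no longer called once cerebellum replicate 3 was left out (limma, adjusted p = 0.0514). The log2 gap of GEM was -1.45 without liver replicate 3 and -2.64 without liver replicate 2. Partners of sodium channels gave 13 of 17 higher in cerebellum and 1 higher in liver, with a median of 1.96. CNTN1, an adhesion protein of the axon, and ANK2, an ankyrin, differed by 5.49 and 4.87. NEDD4, a ubiquitin ligase, was the gene higher in liver at -3.17, with 21.3, 24.6 and 12.6 in cerebellum and 309, 278 and 337 in liver. Of HCN partners only 2 were measured, and PEX5L, an auxiliary subunit in the brain, was higher in cerebellum by 1.77. The other, CAV3, a caveolin of muscle, did not pass, at a log2 difference of -0.65 (limma, adjusted p = 0.0551), and was higher in liver at an unadjusted p under 0.05.

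Of other calcium and cation channels, 7 of 25 were higher in cerebellum and 5 higher in liver, with a median of 0.13. These shares of 28.0% and 20.0% lie near the 26.7% and 23.9% of all features. UNC80 and NALCN, subunits of the sodium leak channel, differed by 4.32 and 3.96. NALCN was at 427, 589 and 493 in cerebellum, against 10.5, 10.5 and 32.4 in liver. The pore subunits of store-operated calcium entry ORAI1 and ORAI3 went toward liver, at -2.47 and -2.22. ORAI1 was at 8.15, 12.5 and 10.6 in cerebellum, against 131, 183 and 97.8 in liver.

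**Figure D4:**
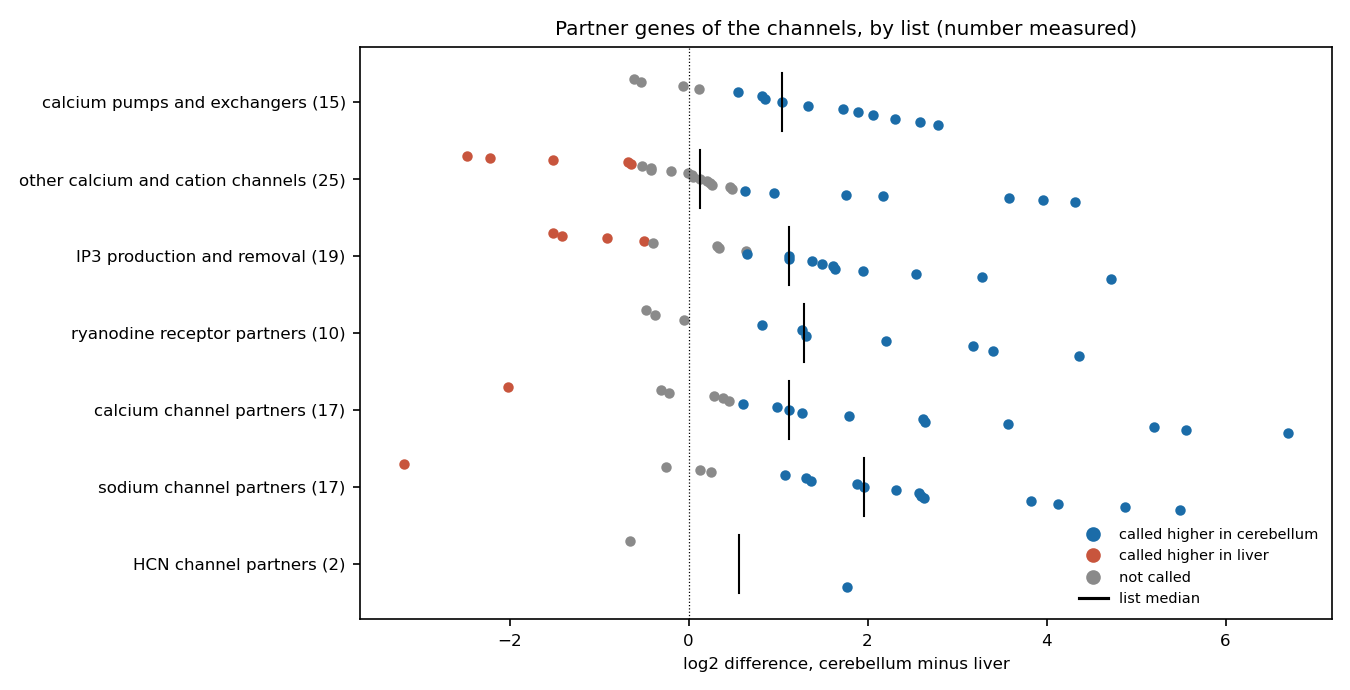
Log2 difference of each measured partner gene (horizontal axis, cerebellum minus liver), 1 row of points per list, with a bar at the list's median. The sodium channel partners have a median of 1.96, with NEDD4 alone at -3.17, and the other calcium and cation channels spread from -2.47 to 4.32.

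The 4 channel genes higher in liver stand beside markers of cell types other than hepatocytes that also differed between the tissues. All 8 measured markers of macrophages and microglia and 7 of 10 of endothelial cells were higher in liver, beside 23.9% of all features. So were 6 of 10 of smooth muscle, stellate cells and fibroblasts, 7 of 9 of lymphocytes and 3 of 8 of bile ducts. All 5 measured blood cell markers were higher in liver too. Their sum was 107 to 143 on the cerebellum arrays and 382 to 637 on the liver arrays. One bile duct marker, SPP1, was higher in cerebellum, at a log2 difference of 2.46, and the summed bile duct lists overlapped, at 1018 to 2318 on the cerebellum arrays and 1554 to 2400 on the liver arrays. The summed intensity of the macrophage list was 259 to 433 on the cerebellum arrays and 3346 to 6408 on the liver arrays, with the highest value on liver replicate 3. That of the smooth muscle and fibroblast list was 585 to 1358 and 1944 to 4372, again highest on liver replicate 3. Among the liver arrays, that replicate had the highest SCN9A value and the lowest TRPM8 and TRPM4 values. TRPV2 was about level on liver replicates 1 and 3, at 85.8 and 86.4, with 61.6 on replicate 2. The macrophage list summed to 3593, 3346 and 6408 on liver replicates 1 to 3. The hepatocyte list summed to 33940, 31810 and 26710 on the same arrays. Schwann cell and nerve markers, of which 3 were measured, summed to 229 to 343 on the cerebellum arrays and 221 to 367 on the liver arrays. On the cerebellum arrays, 4 to 6 of the 9 lymphocyte markers, 1 to 5 of the 10 endothelial markers, 3 to 4 of the 10 smooth muscle and fibroblast markers and 1 to 2 of the 8 macrophage markers lay under the pseudocount. On the liver arrays, 0 to 2 of the smooth muscle and fibroblast markers did, and 0 of the others. NGFR was the nerve marker called higher in liver. The part of these cell types in the liver levels of SCN9A, TRPM8, TRPV2 and TRPM4 was not tested. No listed marker of skeletal and heart muscle but ACTA1 was called, and the list summed to between 254 and 301 on cerebellum arrays and between 295 and 313 on liver arrays.

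The 29 genes higher in cerebellum also varied among the cerebellum arrays, and not all in the same way. Cerebellum replicate 2 had the lowest cerebellum value for 17 of the 29, a share of 58.6%, beside 48.9% of the 4045 features higher in cerebellum. It had the highest value for 10 of the 29, or 34.5%, beside 32.7%. Compared with the other cerebellum arrays' mean, its log2 level was -1.14 for SCN2A, -0.97 for TRPV6, -0.82 for CACNA1A and -0.81 for SCN3A, and 0.55 for CACNA1G, 0.52 for CACNG2 and 0.50 for ITPR1. These genes are named as the ends of that order, after their values were seen.

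CACNA1G was at 94.7, 157 and 110 in cerebellum replicates 1 to 3, and CACNG2 at 150, 270 and 222. Both were highest on replicate 2 and lowest on replicate 1, as was ITPR1. Beside them, the summed Purkinje cell markers were 3961, 6345 and 3976 on replicates 1 to 3, the summed astrocyte and Bergmann glia markers 5210, 8105 and 6287, the summed granule cell markers 11540, 12680 and 12980, and the summed oligodendrocyte markers 5023, 1294 and 1878. Their part in the spread of the channel genes was not tested. Each array is set against the other 2 of its tissue, so opposite signs are partly built in, and the arrays differ in the animal's age and, for replicate 1, its sex.

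**Figure D5:**
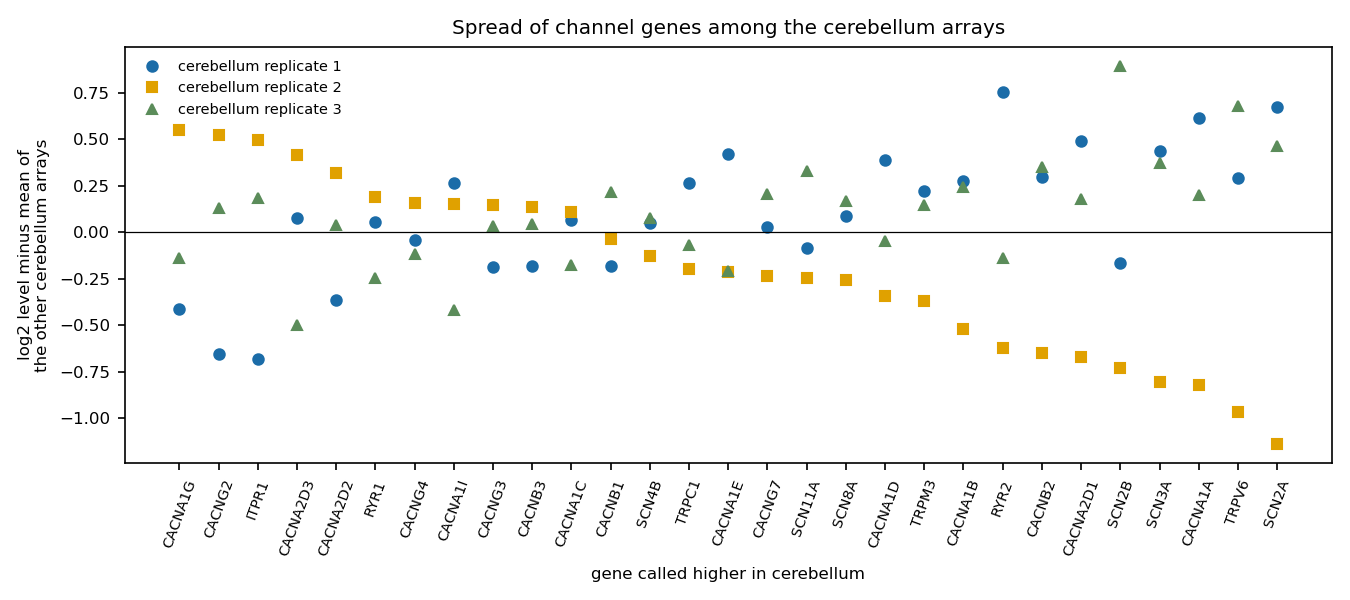
Log2 level of each of the 29 genes called higher in cerebellum on each cerebellum array, minus the mean of the other 2 (vertical axis), ordered by replicate 2. Replicate 2 runs from 0.55 for CACNA1G to -1.14 for SCN2A, while replicate 1 is lowest for ITPR1 at -0.68 and highest for RYR2 at 0.76.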

How the data were processed

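Affymetrix Human Exon 1.0 ST arrays were hybridised with labelled RNA of 3 cerebellum and 3 liver samples. The authors deposited linear intensities for 15143 features. The 6 columns hold the same sorted values, so the deposited intensities had been quantile normalized, and a difference in total signal between tissues cannot be seen. Some background had been subtracted, since 93 values per array lay below 0. The submitters' processing notes name GCOS. Whether chimpanzee bases that differ from the human probes moved a gene's values was not tested. How probes were chosen and summarised into features is not stated in the labels or headers. The small number of arrays limits the precision.

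From these values, log2(intensity + 16.8) was computed with values below 0 set to 0, where 16.8 is the 10th percentile of all values. This scale understates the change of dim genes. Tissues were compared with limma 3.58.1 in R 4.3.3 (two-sided, no block), cerebellum minus liver, with p values adjusted by Benjamini-Hochberg over all 15143 features and a threshold of 0.05. Of the features, 12685 have 1 gene symbol in the platform annotation, 1780 several and 678 none.

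Members, partner and marker lists, tests and the rule that picks named genes were chosen with earlier results of these data known. Every member is named. Values on all 6 arrays are given for members called higher in liver, for the 3 called members with the largest difference toward cerebellum in each family, and for members not called whose tissues did not overlap. From each partner list, the 2 called genes with the largest difference in each direction are named. Other genes given by array illustrate a role or an extreme and were picked with their values in view. Alternative settings were a replicate block, pseudocounts at the 5th and 25th percentile, a filter on dim features, alignment of the arrays on general genes, an intensity trend with a robust prior, each array left out, a 2-fold criterion and the dimmer row per symbol.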

Additional observations from a re-analysis of the deposited data

How the results depend on the processing

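Over 12 alternatives run per gene, no called channel gene changed sign, and 27 of the 29 genes higher in cerebellum and 3 of the 4 higher in liver were called in every setting that tested them. CACNG3, SCN11A and TRPM4 lost their call in some, and CACNG6 and TRPC4 were called in 1 alternative each, as given above. Keeping the dimmer feature of a symbol could change no channel gene, since each had 1 feature. With 1 array left out, 27 to 29 channel genes were higher in cerebellum and 3 to 5 higher in liver. For calcium channel subunits these ranges were 16 to 17 and 0 to 1, for sodium channels 5 to 6 and 1, for TRP genes 3 and 2 to 3, for release channels 3 and 0, and for all features 3285 to 3966 and 2828 to 3704. Without dim features, 35 of the 57 channel genes were tested, so counts of 22 and 3 reflect fewer genes. This filter kept features whose mean lay above the median intensity of 96.3 in either tissue. A gene could thus stay in through the tissue where it is high, so these counts are no separate support for the calls.

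Alignment on 52 general genes moved the median log2 difference of all features to 0.37, in place of 0.04. All features then gave 5141 higher in cerebellum and 2331 higher in liver, in place of 4045 and 3617, so that 68.8% of calls in place of 52.8% were toward cerebellum. The channel genes gave 30 and 3. At least 2-fold, 2600 and 2397 of all features passed. Of genes never called, 15 changed sign in some alternative.

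Samples of the same number in both tissues share sex and age in the labels. Their deviations from the tissue means correlated over all features at 0.11, 0.16 and -0.14 for numbers 1 to 3. With 3 arrays per tissue, such correlations cannot tell whether the same animals gave both tissues. The main fit took no pairs, and the replicate block was run as an alternative. Cerebellum replicate 3 correlated best with liver replicate 1, at 0.24. With a replicate block, 28 channel genes were higher in cerebellum and 3 in liver, and SCN11A and TRPM4 lost their calls (limma, adjusted p = 0.0560 and 0.0726). With 3 arrays per tissue no permutation of 1 gene can give a two-sided p under 0.10. Dim genes, with values near the pseudocount, limit the fold that can be measured.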
